A study of Mus musculus with 12 samples.

Results

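The aldehyde dehydrogenase 1 genes Aldh1a1, Aldh1a7 and Aldh1l1 are 3 of the 2091 genes that the mRNA tables of this series list at any day, and 3 of the 236 that they list at all 3 days. They were chosen by family name together with their listed ratios, so their ratios are given as a description and carry no test. Cells of the mouse fibroblast line AKR-2B were grown in soft agar, a gel that offers no surface to attach to. The colonies received either vehicle or 25 ng/mL TGFβ and were recovered after 2, 4 and 8 days. The mRNA part holds 6 libraries, 1 per condition and day, so no value here has a replicate error. Each day has 1 table of 998 genes, 499 with a ratio above 1 and 499 below. The tables give only the ratio between the libraries of the day, with no value per library. Their headers name no direction. The ratios are read here as TGFβ over vehicle, from a list of 20 common TGFβ target genes. Of these, 10 were listed above 1 at any day and 1, Timp3, below. By day, 3, 10 and 5 were above 1 at days 2, 4 and 8, and 0, 1 and 1 below. Of all protein-coding genes, 1.86%, 2.07% and 2.01% were listed above 1 at those days, and 2.05%, 1.92% and 2.03% below. At day 2 the reading thus rests on 3 genes. The list of targets was drawn up with earlier results of these data known. It leaves out the smooth muscle genes Acta2, Myl9 and Mylk, which were below 1 at days 2 and 4. Read the other way, every direction given here inverts. Library totals were not used here, so any difference in depth that the authors left in a ratio stays in it. In a colony's RNA, fewer cells that make a transcript and less of it per cell cannot be told apart.

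Aldehyde dehydrogenases oxidize aldehydes to carboxylic acids with NAD or NADP. Aldh1a1 encodes retinaldehyde dehydrogenase 1, which turns retinal into retinoic acid, the ligand of nuclear receptors that act on cell differentiation, and which also clears aldehydes formed by lipid peroxidation. Aldh1a7 encodes its close rodent paralog. Aldh1l1 encodes the cytosolic 10-formyltetrahydrofolate dehydrogenase, which releases the formyl group of the folate cofactor as CO2, yields NADPH, and draws on the same one-carbon pool that purine synthesis uses. It is widely used as an astrocyte marker and is abundant in liver.

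The pair and the single gene lie on different chromosomes. In the GENCODE annotation of mm10, the build in the submitters' processing notes, the main Aldh1a1 transcript (ENSMUST00000087638.3) runs on the plus strand at chr19:20601961-20643462. Aldh1a7 (ENSMUSG00000024747.3) runs on the minus strand at chr19:20692953-20727562. Their 3′ ends face each other across 49490 bases. Both transcripts have 13 exons and 1503 coding bases. Aldh1l1 (ENSMUST00000130418.7) runs on the plus strand at chr6:90550789-90600203, with 23 exons and 2706 coding bases. Without gaps, the coding sequences of Aldh1a1 and Aldh1a7 differ at 126 of 1503 bases (91.6% identical). The best local match of Aldh1a1 to Aldh1l1 spans 707 coding bases at 69.2% identity, and that of Aldh1a7 spans 479 bases at 72.0%.

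The first 120 coding bases of the pair, from GENCODE (mm10), are printed because reads from such stretches decide whether the genes can be told apart. Capitals mark the 10 bases that differ.
Aldh1a1: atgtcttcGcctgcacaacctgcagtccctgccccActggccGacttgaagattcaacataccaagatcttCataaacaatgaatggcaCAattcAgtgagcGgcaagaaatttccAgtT
Aldh1a7: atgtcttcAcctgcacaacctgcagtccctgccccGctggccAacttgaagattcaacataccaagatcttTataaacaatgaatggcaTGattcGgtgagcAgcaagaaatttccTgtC
The longest run of identical bases at the same coding position is 100 bases, at coding bases 757 to 856. Of the 2004 stretches of 50 bases in the Aldh1a1 transcript, 151 (7.53%) also occur in another gene's transcript, and all 151 do so in Aldh1a7 alone. The share for Aldh1a7 is 7.49% of 2017. The sources used here do not say how reads that match both genes were counted, so the split of reads between Aldh1a1 and Aldh1a7 is uncertain, while most stretches are specific to 1 gene. For Aldh1l1, 344 of 4126 stretches (8.34%) also occur, on either strand, in the antisense gene Gm15756 at its 3′ end. The library kit named in the labels does not keep the strand, so reads there cannot be assigned to either gene.

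The starts of Aldh1a1 and Aldh1a7 are also alike, and they are printed because these genes were low together. Any link between these starts and the ratios was not tested. The RefSeq promoter tables (GRCm38.p6, the same assembly as mm10) hold windows for all 3 genes. The stretches below run from 110 to 11 bases before the start for the pair, at chr19:20601858-20601957 (plus strand) and chr19:20727567-20727666 (minus strand), and from 130 to 31 bases before it for Aldh1l1, at chr6:90550663-90550762 (plus strand). Capitals mark CCAAT (or its reverse ATTGG), the octamer ATGCAAAT and the GC box GGGCGG.
Aldh1a1: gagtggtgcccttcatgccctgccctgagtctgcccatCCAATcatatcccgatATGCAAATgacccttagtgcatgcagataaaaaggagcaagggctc
Aldh1a7: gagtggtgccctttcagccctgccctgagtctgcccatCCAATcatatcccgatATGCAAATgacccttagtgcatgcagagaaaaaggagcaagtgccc
Aldh1l1: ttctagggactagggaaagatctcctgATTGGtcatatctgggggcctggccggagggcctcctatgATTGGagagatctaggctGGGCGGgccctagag

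Over these 100 bases the pair differed at 6 positions (94% identical). One of them, T-29G (Aldh1a1 base first, counted back from the start), lies in the A-rich stretch 29 bases before the start. In the same stretch, Aldh1l1 matched Aldh1a7 at 21% of positions and the far upstream start of Aldh1a1 matched it at 30%. Beyond 110 bases the same-offset identity of the pair was lost, at 21% between -250 and -151. With gaps allowed, 160 of 175 aligned bases of the 250 before the start were identical (91.4%). By the same gapped measure, the far upstream start of Aldh1a1 matched Aldh1a7 at 64.2% of aligned bases and Aldh1l1 at 61.7%.

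**Figure D1:**
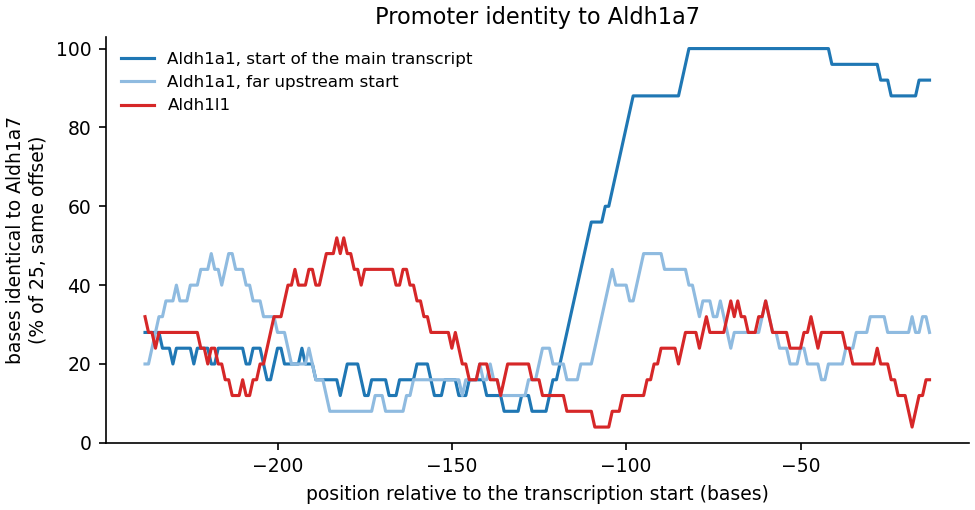
Percent of bases identical to the Aldh1a7 promoter at the same offset, in windows of 25 bases, against the position relative to the RefSeq transcription start, for the start of the main Aldh1a1 transcript, the far upstream Aldh1a1 start and Aldh1l1. The main Aldh1a1 line is high over the last 110 bases before the start, where 94 of 100 printed bases are identical, and low further upstream.

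Motifs were searched on both strands of the whole RefSeq windows, of 300 bases each, and none of the matches named here overlap. Positions are counted from the start, with negative numbers before it. The octamer stands at -56 to -49 in both Aldh1a1 and Aldh1a7 and is held by 1.74% of 32851 promoters of that length. CCAAT stands at -72 to -68 in both, with a further match in Aldh1a7 at -137 to -133 and one across the Aldh1a1 start. It also occurs in reverse in Aldh1l1, at -103 to -99 and at -63 to -59, and is held by 37.4% of promoters. CAGAC, a short motif bound by SMAD proteins, stands in reverse at -82 to -78 in both genes of the pair and had no match in the Aldh1l1 window, against 49.6% of promoters that hold it. AGGTCA, a motif bound by nuclear receptors, was matched in Aldh1l1 alone, in reverse, at -178 to -173 (16.3% of promoters hold it), as was the GC box, at -45 to -40 (35.7%). The TATA box TATAAA had no match in the windows of Aldh1l1 and Aldh1a1 and a match at -244 to -239 in Aldh1a7 (13.6% hold it). A match is a description of letters and not a bound site.

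Aldh1a1 and Aldh1a7 were far below 1 at every day, and Aldh1l1 far above 1. The retinaldehyde dehydrogenase gene Aldh1a1 had ratios of 0.00917 at day 2, 0.0141 at day 4 and 0.0101 at day 8 per the authors' deposited table. Its paralog Aldh1a7 stood at 0.00629, 0.00529 and 0.00578 per the authors' deposited table. The folate enzyme gene Aldh1l1 stood at 45, 107 and 255 per the authors' deposited table. As fold differences, the authors' deposited table thus gives Aldh1a1 as 109-fold, 71-fold and 99-fold lower with TGFβ, and Aldh1a7 as 159-fold, 189-fold and 173-fold lower. All 9 ratios were past 10-fold as deposited, which the few reads behind some of them do not secure. Among the listed genes, 4.71%, 16.8% and 16.1% were at least 10-fold higher at days 2, 4 and 8, and 26.7%, 27.6% and 32.8% at least 10-fold lower. The members were chosen on these ratios, so nothing is read from their side of that share.

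**Figure D2:**
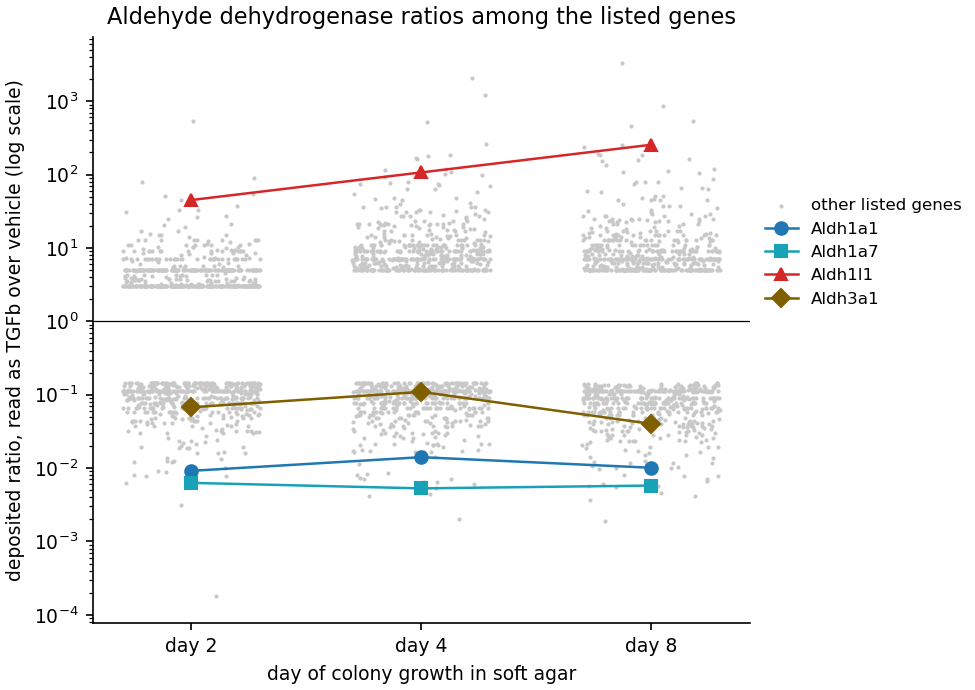
Deposited ratio of each listed gene (grey points) at days 2, 4 and 8 on a log axis, with Aldh1a1, Aldh1a7, Aldh1l1 and the further aldehyde dehydrogenase gene Aldh3a1 drawn as lines. Aldh1l1 moves up from 45 to 255, while Aldh1a1 and Aldh1a7 stay at or below 0.0141 at each day.

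The size of these ratios depends on very few reads in the lower library. In the tables, 2991 of 2994 ratios (99.9%) can be written as an odd number over an odd number, as read counts plus 0.5 would give. The search allowed terms so large that most ratios below 1 could pass whatever their origin. That share is therefore no test of the form, and reading the ratios as counts plus 0.5 stays an assumption. All 9 ratios of the 3 genes have 1 as the smaller term, which is 0 reads plus 0.5. In lowest terms, Aldh1a1 then had 54, 35 and 49 reads in the vehicle libraries of days 2, 4 and 8 and 0 in each TGFβ library. Aldh1a7 had 79, 94 and 86 reads with vehicle and 0 with TGFβ. Aldh1l1 had 0 reads in each vehicle library and 22, 53 and 127 with TGFβ. A ratio of 255 therefore restates 127 reads against none, and the 0.5 sets its size.

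**Figure D3:**
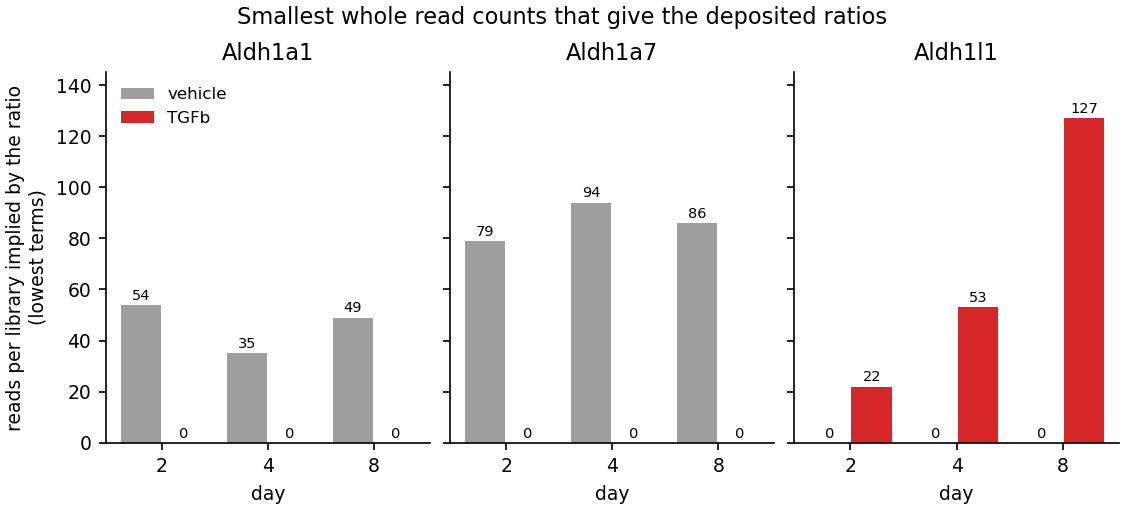
Smallest whole read counts per library that give the deposited ratios, for vehicle (grey bars) and TGFβ (red bars) at days 2, 4 and 8. Aldh1a1 and Aldh1a7 have reads in the vehicle libraries alone, 35 to 94 per library, and Aldh1l1 in the TGFβ libraries alone, 22 to 127.

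With the 0 set to 3 counts in that library, Aldh1a1 came out 18.0-fold, 11.7-fold and 16.3-fold lower with TGFβ at days 2, 4 and 8, before any scaling for depth. Aldh1a7 came out 26.3-fold, 31.3-fold and 28.7-fold lower, and Aldh1l1 7.33-fold, 17.7-fold and 42.3-fold higher. The exact conditional 95% limits nearest to 1, which also carry the error of the larger count, were smaller. By them Aldh1a1 was at least 14.1-fold, 8.997-fold and 12.8-fold lower, Aldh1a7 at least 20.9-fold, 25.0-fold and 22.8-fold lower, and Aldh1l1 at least 5.48-fold, 13.9-fold and 33.9-fold higher. These limits cover counting error only, and PCR copies of 1 molecule count as several reads, since the labels describe no molecular identifiers.

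The same ratios also arise from terms 3 times larger, because a common factor cancels. Aldh1l1 would then have had 67, 160 and 382 reads with TGFβ and 1 with vehicle at each day. At day 8 that is a ratio of 382 reads to 1, with an exact conditional 95% interval of 68.2 to 15127. Aldh1a1 would have had 163, 106 and 148 reads against 1, and Aldh1a7 238, 283 and 259 against 1. The tables cannot tell these forms apart for a single gene and day. Of the genes below 1 whose larger term is at least 41 (20 reads), 20 of 207 had 1 as the smaller term at day 2, 19 of 181 at day 4 and 27 of 228 at day 8. Above 1 these were 3 of 89, 17 of 211 and 20 of 192. Only 6 genes had that form at all 3 days: Aldh1a1, Aldh1a7, Ikzf4 and Vipr2 below 1, and Aldh1l1 and Tnni3k above 1. Tnni3k, a kinase gene known from heart muscle, was named after its values were seen and stood at 55, 71 and 45 per the authors' deposited table.

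Within a vehicle library, where no scaling for depth is needed, Aldh1a7 had more reads than Aldh1a1 if both ratios are taken in lowest terms. Their transcripts have nearly equal lengths (2066 and 2053 bases), so the reads compare directly. The quotient of Aldh1a7 to Aldh1a1 reads, in lowest terms, was 1.46 at day 2 (exact conditional 95% interval 1.02 to 2.11), 2.69 at day 4 (1.80 to 4.08) and 1.76 at day 8 (1.22 to 2.55). Summed over the days it was 259 reads to 138, or 1.88 (1.52 to 2.32). These intervals describe counting error only and are no test, since the reads come from the ratios that chose the genes. With terms 3 times larger for Aldh1a1 alone the order turns, at 163 Aldh1a1 reads against 79 of Aldh1a7 at day 2. The quotient also rests on how shared reads were split.

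Over the days the ratios of Aldh1a1 and Aldh1a7 spanned less than those of Aldh1l1, which rose at each step. With 1 as the smaller term at every day, these spans follow the reads of 1 condition alone, unlike those of genes with reads in both. The ratios of Aldh1a7 spanned 1.19-fold over the 3 days and those of Aldh1a1 1.54-fold. The median span of the 125 genes listed below 1 at all days was 2.43-fold, and 4 of them had a smaller span than Aldh1a7 and 23 a smaller span than Aldh1a1. By mean log2 ratio Aldh1a7 (-7.44) had the lowest value of these 125 and Aldh1a1 (-6.52) the 7th lowest. Aldh1l1 (mean log2 ratio 6.74) was the 3rd highest of the 105 genes listed above 1 at all days. Its ratio grew 2.38-fold from day 2 to day 4 and 2.38-fold again to day 8, or 5.67-fold in all. The median growth of the 105 genes from day 2 to day 8 was 2.39-fold, 23 of them grew more, and 37 rose at each step.

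Reads within the TGFβ libraries put the same climb beside genes of those libraries. In lowest terms, Aldh1l1 reads were 5.77 times as many at day 8 as at day 2. That value rests on 22 reads at day 2 and on the same factor, if any, having cancelled at both days. Among the 41 genes listed above 1 at all days with a larger term of at least 201, the median was 1.43 times, with quartiles of 0.821 and 2.30. Of these, 38 grew less than Aldh1l1. Aldh1l1 itself, with larger terms of 45 and 107 at days 2 and 4, does not meet that limit. The limit leaves out genes that climb from few reads, so the 38 do not show how unusual its climb was. In the vehicle libraries, Aldh1a1 reads at day 8 were 0.907 times and Aldh1a7 reads 1.09 times those at day 2. The median of 43 genes listed below 1 under the same limit was 1.38 times, and both genes lay between the quartiles of 0.612 and 2.13. Neither gene met that limit at any day. These genes were themselves selected by their ratios, and days are not replicates.

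In the order of the tables, counted from the extreme on its side, Aldh1a7 was 3rd, 4th and 7th lowest at days 2, 4 and 8. Aldh1a1 was 8th, 15th and 15th lowest, and Aldh1l1 6th, 11th and 5th highest. At day 2 the genes beside Aldh1a7 were Agt, the angiotensinogen gene, at 317-fold lower and Cnnm1 at 127-fold lower per the authors' deposited table. At day 4 it stood between Ikzf4 (223-fold lower) and Pappa2 (163-fold), and at day 8 between Lbp (175-fold) and Ptgis (166-fold), per the authors' deposited table. Beside Aldh1a1 stood Ces1f (115-fold lower) and Ikzf4 (99-fold) at day 2, Ifi27l2a (88.2-fold) and Ifi44 (60.3-fold) at day 4, and Aqp1 (104-fold) and, at the same ratio as Aldh1a1, Nrgn (99-fold) at day 8 per the authors' deposited table. Aldh1l1 stood between Tarm1 (51) and Tas2r119 (37) at day 2 per the authors' deposited table. At day 4 it shared the ratio of 107 with the protease gene Prss46, above Btn1a1 (101), and at day 8 it stood between the laminin gene Lamb3 (465) and Prss46 (241) per the authors' deposited table. In lowest terms, Aqp1 had at least 14400 vehicle reads and 138 with TGFβ at day 8, so neighbours in this order differ widely in the reads behind them. Neighbours whose lower library had 0 reads cannot be ranked beyond the counts of the other library.

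The 3-day patterns most like each gene were taken as the smallest Euclidean distances of log2 ratios over the 3 days, among the 236 genes listed at all days. Nearest to Aldh1a1 was Ces1f, a carboxylesterase gene, at a distance of 0.63, with 115-fold, 59.5-fold and 66.4-fold lower values per the authors' deposited table. It was followed by Vipr2 (1.39), Ikzf4 (1.67), Aldh1a7 (1.71) and Pappa2 (1.82). Nearest to Aldh1a7 was Spon2, a matrix protein gene, at 1.07, followed by Ikzf4 (1.26), Aldh1a1 (1.71), Cnnm1 (1.82) and Vipr2 (1.96). Aldh1a1 and Aldh1a7 were thus each among the 5 nearest of the other. Nearest to Aldh1l1 was the cadherin gene Cdh6 at 1.19, with 26.3, 181 and 182 per the authors' deposited table. Acsbg1, an acyl-CoA synthetase gene, followed at 1.74 with 15.4, 77.3 and 161 per the authors' deposited table, then the endothelial cadherin gene Cdh5 (2.18), the BMP receptor gene Bmpr1b (2.21) and Btn1a1 (2.23). A distance over 3 values with no replicate describes likeness in these tables and nothing more.

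Listed neighbours on the chromosome are given without a test. For comparison, 2091 genes were listed at any day, some of them non-coding, and RefSeq holds 21900 protein-coding genes. Within 1 Mb of Aldh1a1, RefSeq (GRCm38.p6) has 7 further protein-coding genes, and besides Aldh1a7 only Gda, a guanine deaminase gene at chr19:21391307-21472661, was listed, at day 4 alone (7.40-fold lower per the authors' deposited table, 2 reads against 18). Within 1 Mb of Aldh1l1, 3 of 34 protein-coding genes were listed. The matrix gene Fbln2 (chr6:91212460-91272540) stood at 15.1 and 13.0 at days 4 and 8 per the authors' deposited table, and the vomeronasal receptor genes Vmn1r40 and Vmn1r44 at 3 and 9 at day 2, with 1 and 4 reads against 0.

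The other ALDH1 genes Aldh1a2, Aldh1a3, Aldh1b1 and Aldh1l2 were listed at no day, so 1 of 7 family genes was listed above 1 and 2 below at each day. For comparison, 1.86%, 2.07% and 2.01% of 21900 RefSeq protein-coding genes were listed above 1 at days 2, 4 and 8, and 2.05%, 1.92% and 2.03% below. Which genes the authors tested is not stated in the labels, and a gene outside the tables is not shown to be unchanged. The tables end at ratios of 3, 5 and 5 above 1, and at 7-fold lower below 1, where 186, 82 and 108 genes tie above and 58, 48 and 4 below. A gene with 3 reads in 1 library and 0 in the other reaches 7.

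Of 14 further aldehyde dehydrogenase genes, 1 was below 1 at each day and 1 above 1 at day 4. Aldh3a1, which oxidizes aromatic and lipid-derived aldehydes and is known from cornea, was 14.8-fold, 9.15-fold and 25.0-fold lower at days 2, 4 and 8 per the authors' deposited table. Reads were present in both conditions, with at least 1476, 1340 and 1635 in the vehicle libraries and 99, 146 and 65 with TGFβ. The exact conditional 95% intervals of these unscaled read ratios were 0.0542 to 0.0822, 0.0912 to 0.129 and 0.0305 to 0.0509. They cover counting error only, and within it the day 2, 4 and 8 intervals did not overlap. Aldh8a1, related to the retinal-oxidizing enzymes, stood at 5 at day 4 per the authors' deposited table, which is 2 reads against 0.

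**Figure D4:**
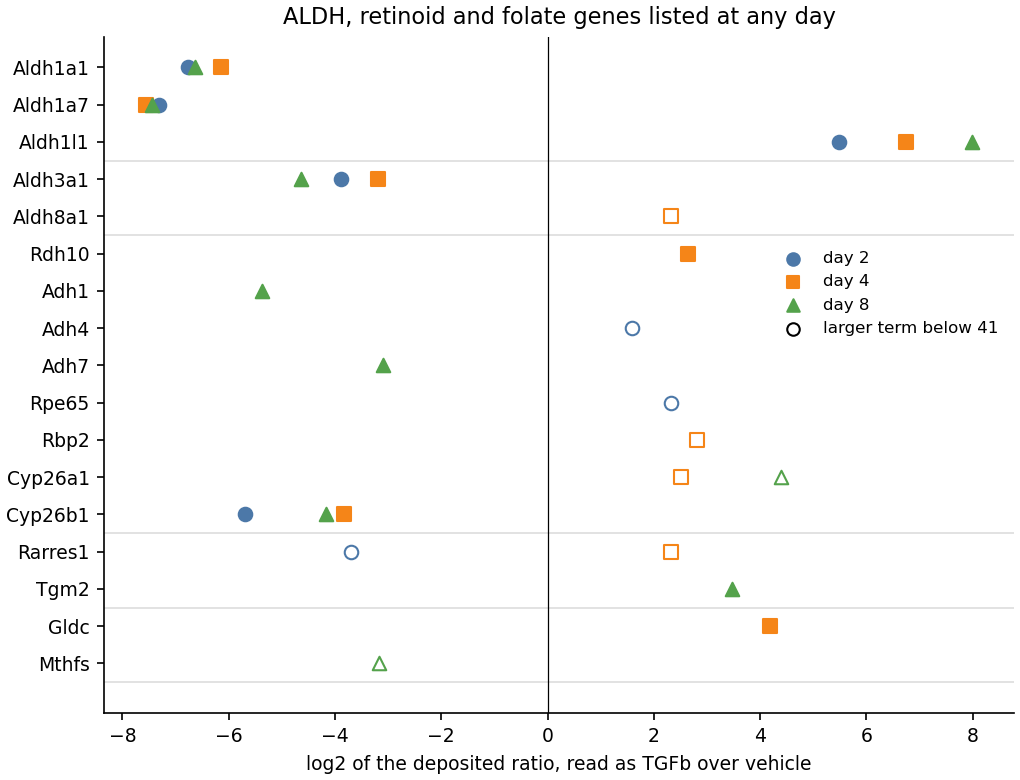
Log2 of the deposited ratio at days 2 (circles), 4 (squares) and 8 (triangles) for every gene of the ALDH, retinoid, retinoic acid and folate lists that was listed at any day; open symbols have a larger term below 41, that is, fewer than 20 reads in lowest terms. Aldh1a1, Aldh1a7, Aldh3a1 and Cyp26b1 lie below 0 at all 3 days and Aldh1l1 above 0.

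Around Aldh1a1, genes that supply retinal or clear retinoic acid were listed on both sides. For this list and the lists that follow, the background is the share of all protein-coding genes. It was 1.86%, 2.07% and 2.01% above 1 and 2.05%, 1.92% and 2.03% below at days 2, 4 and 8. The counts are small, and no list was tested against this background. Of 36 such genes, those above 1 numbered 2, 3 and 1 at days 2, 4 and 8, and those below 1 numbered 1, 1 and 3. Genes of these steps outside the 36 were not counted, so these numbers are no full account of them. Genes whose larger term reached 41 numbered 0, 1 and 0 above 1 and 1, 1 and 3 below. Cyp26b1, which degrades retinoic acid, was 51.9-fold, 14.1-fold and 18.0-fold lower per the authors' deposited table. In lowest terms Cyp26b1 had 1842, 671 and 1176 reads with vehicle and 35, 47 and 65 with TGFβ. Its relative Cyp26a1 stood at 5.67 and 21 at days 4 and 8 per the authors' deposited table, which is 8 reads against 1 and 10 against 0. Rdh10, which makes the retinal that Aldh1a1 uses, stood at 6.27 at day 4 per the authors' deposited table, with 4038 reads against 644. The alcohol dehydrogenase genes Adh1 and Adh7, whose enzymes can oxidize retinol, were 41.4-fold and 8.50-fold lower at day 8 per the authors' deposited table. Adh7 had 8814 vehicle reads and 1036 with TGFβ, and Adh1 186 and 4. Adh4 (3, day 2), Rpe65 (5, day 2) and Rbp2 (7, day 4) rested on 1 to 3 reads against 0 per the authors' deposited table.

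Of 19 retinoic acid receptors and common target genes, which share Cyp26a1 and Cyp26b1 with the list above, those above 1 numbered 0, 2 and 2 at days 2, 4 and 8, and those below 1 numbered 2, 1 and 1. None of the receptor genes was listed. Tgm2, transglutaminase 2, stood at 11.1 at day 8 per the authors' deposited table, with 161 reads against 14. Rarres1 was 13-fold lower at day 2 and at 5 at day 4 per the authors' deposited table, which is 0 reads against 6 and 2 against 0.

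Around Aldh1l1, of 36 folate and one-carbon genes, those above 1 numbered 0, 1 and 0 at days 2, 4 and 8, and those below 1 numbered 0, 0 and 1. Gldc, which cleaves glycine in mitochondria and feeds the one-carbon pool, stood at 18.2 at day 4 per the authors' deposited table, with 45 reads against 2. Mthfs, which recycles 5-formyltetrahydrofolate, was 9-fold lower at day 8 per the authors' deposited table, with 0 reads against 4.

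Markers of cells known for these enzymes were looked for in the same tables. Of 10 fibroblast markers, 5 hepatocyte markers and 5 leukocyte markers none was listed at any day, which leaves their levels unknown. Of 6 astrocyte markers Slc1a3 alone was listed, on the side opposite to Aldh1l1, at 11.3-fold, 7.73-fold and 8.32-fold lower per the authors' deposited table. All 4 endothelial markers were listed above 1 at some day, as Aldh1l1 was, though at few reads: Cdh5 had at least 15, 31 and 32 reads with TGFβ and 0 with vehicle, and Pecam1, Kdr and Tek 1 to 5 reads against 0. By day, 2, 2 and 3 of these 4 were above 1 at days 2, 4 and 8, and 0 below. The shares of all protein-coding genes above 1 were 1.86%, 2.07% and 2.01%. Endothelial genes outside these 4 were not counted, so the 4 do not show on which side endothelial genes lie as a set. Of 6 epithelial markers Krt8 (16 reads against 0 at day 2 and 21 against 2 at day 4) and Cldn4 (1 and 2 reads against 0 at days 2 and 8) were listed above 1. Their part in the Aldh1l1 values was not tested.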

How the data were processed

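The data are 3 mRNA tables of ratios (fold changes) deposited by the authors, 1 per day, with no replicate and no total per library. No scaling for depth was applied here. The ratios hold none from the authors only if they are counts plus 0.5, which is an assumption. Per the submitters' processing notes, edgeR 3.9 and mm10 were used, with no role stated; no aligner or counting rule is given in the sources used here. miRNA tables were not used. Members, gene lists and rules were chosen with earlier results of these data known. Genes named are the members, listed genes of the enzyme and pathway lists, the 5 nearest patterns, neighbours in order and listed genes within 1 Mb. Each ratio was read, at 9 decimals below 1 and 10 significant digits above, as the smallest fraction of odd numbers (Python 3.11.15). In 983 simulated ratios of counts plus 0.5, 100% were recovered, and a common factor had cancelled in 16.8%. The simulation does not test whether the deposited ratios have that form. Count intervals are exact conditional binomial 95% intervals (SciPy 1.17.1). Sequences were compared with Biopython 1.88. Symbols matched RefSeq as given for 884, 904 and 899 genes and as synonyms for 106, 84 and 93. Alternatives were the reciprocal, division by a table centre, 1 in place of 0.5, terms 3 times larger, leaving out days, a larger term of at least 41 and symbols as given.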

Additional observations from a re-analysis of the deposited data

How the results depend on the processing

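No paired analysis was possible because each condition and day has 1 library, the tables hold no value per library, and the days, which the means below average over, are time points and not replicates. Read as vehicle over TGFβ, every log2 ratio changes sign: Aldh1a1 would stand at 6.77, 6.15 and 6.63 (mean 6.52), Aldh1a7 at 7.31, 7.56 and 7.43 (mean 7.44) and Aldh1l1 at -5.49, -6.74 and -7.99 (mean -6.74) at days 2, 4 and 8. The centre of the table edges equals the median log2 ratio of the table by construction. Dividing by it moved the mean log2 ratio to -6.15 for Aldh1a1, -7.07 for Aldh1a7 and 7.11 for Aldh1l1. Adding 1 in place of 0.5 moved these means to -5.53, -6.44 and 5.76. With terms 3 times larger the implied reads were 163, 106 and 148 for Aldh1a1, 238, 283 and 259 for Aldh1a7 and 67, 160 and 382 for Aldh1l1. With a larger term of at least 41, genes listed at any day fell to 0 above 1 among the other aldehyde dehydrogenases (from 1), to 1 above among retinoid supply and clearance genes (from 5), to 1 above and 1 below among retinoic acid receptors and targets (from 3 and 2), to 0 below among folate genes (from 1) and to 3 below among other aldehyde and stress enzymes (from 5). Leaving out each day kept the sign of each mean, which was fixed in advance, since all 3 ratios of each gene lie on the same side of 1. Few reads and no library totals limit these values.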

Other observations

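Among 25 genes of other aldehyde and oxidative-stress enzymes, those above 1 numbered 0, 1 and 0 at days 2, 4 and 8. Those below 1 numbered 4, 2 and 2, against the shares of all genes given for those days above. Such genes outside the 25 were not counted. Cbr2, a carbonyl reductase gene, was 53.9-fold, 35.7-fold and 23.3-fold lower per the authors' deposited table. Cbr2 had at least 673, 838 and 1709 reads with vehicle and 12, 23 and 73 with TGFβ at days 2, 4 and 8. Akr1c14, which reduces steroids, was 11.3-fold and 7.71-fold lower at days 2 and 8 per the authors' deposited table. By contrast Akr1c18, which inactivates progesterone, stood at 6.91 at day 4 per the authors' deposited table, with 514 reads against 74. The glutathione transferase gene Gstm1 was 7.79-fold lower at day 2 per the authors' deposited table, with 40 reads against 315. Akr1b7 (0 reads against 5 at day 2) and Gsta3 (0 against 3 at day 4) rested on few reads.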
